A study of Mus musculus with 2 samples.

Results

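The genes described here are the mouse zinc finger genes whose whole symbol is Zfp followed only by digits. They were taken from the raw count table where the counts of both libraries summed to 1000 or more, which left 204 genes of 24532 rows. The table lists 344 numbered Zfp genes in all, of which 140 lay below that minimum and 20 of those were at 0 in both libraries. The members were chosen by their summed counts over both libraries, so their abundance is a property of the choice and not a result. A gene could also pass the minimum through 1 library alone, and for that reason counts of members past 2-fold are read beside the same share of all 10157 genes that passed the same minimum.

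The libraries came from cardiac myofibroblasts, activated fibroblasts that contract and lay down matrix in the injured heart. The cells were isolated from C57BL/6 mouse hearts 3 days after myocardial infarction, and both groups share that injury. Cells of the siControl group received 12.5 nM of a control siRNA, and cells of the siBcat1 group received 12.5 nM of an siRNA against Bcat1, the cytosolic branched-chain amino acid aminotransferase. Both were given with Lipofectamine RNAiMAX and both were cultured for 72 h. Each group held 1 library, so no test was made, no p-value is given, and the difference between the groups cannot be told apart from the difference between 2 cultures.

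Most numbered Zfp genes encode proteins with C2H2 fingers, short folds in which a pair of cysteines and a pair of histidines hold a zinc ion while a helix reads DNA bases. Fingers follow each other in arrays joined by a conserved linker. In many of these proteins an amino-terminal KRAB box recruits the scaffold TRIM28 (KAP1), which brings the histone methyltransferase SETDB1 and heterochromatin protein HP1 to the bound site, and many of the known targets are retroelements and imprinted loci. Members without a KRAB box include developmental regulators, RNA-binding proteins and ubiquitin ligases. The symbol is a name and not a family: some members carry another kind of zinc finger.

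The form of a finger with its linker can be read in the coding sequences. Below is 1 finger with its linker, 78 bases from GENCODE M21 transcripts (GRCm38), for 5 genes to which the results return: the 2 KRAB members with the lowest folds on the count scale (Zfp68 and Zfp426), 2 KRAB members that were high (Zfp560 and Zfp850), and the member that shares most sequence with another gene (Zfp97). Capitals mark the 15 bases of the linker. All are written 5′ to 3′ on the coding strand.
Zfp68 (chr5:138603652-138619761, minus strand): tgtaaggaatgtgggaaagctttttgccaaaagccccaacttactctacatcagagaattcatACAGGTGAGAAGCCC
Zfp426 (chr9:20468549-20492746, minus strand): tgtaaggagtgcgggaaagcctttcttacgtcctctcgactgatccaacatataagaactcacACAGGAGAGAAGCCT
Zfp560 (chr9:20345136-20385177, minus strand): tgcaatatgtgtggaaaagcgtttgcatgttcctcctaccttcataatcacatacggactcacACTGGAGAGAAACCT
Zfp850 (chr7:27984854-28014115, minus strand): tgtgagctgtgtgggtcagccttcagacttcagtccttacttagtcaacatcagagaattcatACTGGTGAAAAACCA
Zfp97 (chr17:17121415-17146831, plus strand): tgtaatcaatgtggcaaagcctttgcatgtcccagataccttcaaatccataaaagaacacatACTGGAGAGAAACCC
The coordinates are those of the whole genes. Over the 10 pairs of these sequences, 53.8% to 74.4% of the 78 positions held the same base, and 10 to 14 of the 15 linker positions did. Each finger was picked by a pattern that fixed its cysteines, its histidines and most residues of the linker. Part of this likeness, above all in the linker, was therefore set by the choice. Zfp68 had 9 fingers, Zfp426 had 11, Zfp560 had 15 and Zfp850 had 16.

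Such repeats bear on how well reads can be placed. Of the 204 members, 41 shared at least 1 word of 100 transcript bases with another annotated gene, and 14 shared over 10% of their words, 11 of them with a KRAB box. Zfp97 shared 67.3% of its words, Zfp524 54.7%, Zfp58 49.1%, Zfp617 32.9% and Zfp932 26.9%. The counts of these 5 genes are uncertain, since the counting could split or drop their reads. The 14 genes had a median log2 fold of 0.07 and none was 2-fold higher or lower, beside 5.56% and 13.2% of all genes. Overlapping gene models are a further limit: 36 members overlap a gene on the same strand, 72 overlap one on the opposite strand, and 116 overlap none. Whether the counting used strand is not given in the sources used here, so reads of an antisense partner may be included.

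The siControl library held 127309329 counts and the siBcat1 library 104581819. Bcat1 itself, the check of the labels, had 8891 counts in siControl and 99 in siBcat1. All 10 fibroblast markers passed the count minimum, with a summed level of 36553 CPM (scaled counts relative to library size) in siControl and 23985 CPM in siBcat1. Of these 10, 3 were at least 2-fold lower and 0 higher, beside 13.2% and 5.56% of all genes. Col1a1, the most abundant, had 11058 and 4345 CPM. Vim (4724 and 6985 CPM) and Tagln (1528 and 2129 CPM) went the other way. Of the cardiomyocyte markers Myh6 and Nppa were at 0 in both libraries, and of the leukocyte markers Ptprc and Adgre1 were. Others on these lists were not: Tnnt2 had 46.3 CPM in siControl and 10.3 CPM in siBcat1. Lyz2 had 5.46 and 21.3 CPM, and Cd68 0.502 and 1.53 CPM. The summed level of the other lists was 46.4 and 10.4 CPM for cardiomyocyte markers, 10.3 and 28.8 CPM for leukocyte markers, 44.4 and 41.6 CPM for endothelial markers, 13.8 and 8.15 CPM for mural cell markers, 23.5 and 14.2 CPM for epicardial markers, and 2.28 and 4.95 CPM for glial markers, siControl first. A sum does not describe each member, since members of a list could go opposite ways. Among epicardial markers Krt19 was higher in siBcat1 (186 and 766 counts), while Upk3b (2320 and 405 counts), Wt1 and Msln were lower. Among mural cell markers Kcnj8 and Rgs5 were higher in CPM, and Myh11, Cspg4 and Des were lower. Tek, with 33.9 CPM in siControl, made up most of the endothelial sum. The part of any of these lists in the results below was not tested. In bulk samples such as these, fewer cells of a type and less RNA per cell cannot be told apart.

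Together the 204 genes took 0.363% of the counts in siControl and 0.276% in siBcat1. Single members had between 260 and 25814 counts in a library, and none was at 0. All log2 folds set siBcat1 over siControl, in counts scaled by TMM (a library factor that holds most genes near no difference), with an exact (Clopper-Pearson) 95% interval. These intervals cover counting error only and say nothing of the spread between cultures. Their width had a median of 0.24 on the log2 scale, with a range of 0.06 to 0.39. The whole interval lay below 0 for 113 members and above 0 for 58, and held 0 for 33. The same counts over all genes are not given here, so these numbers do not set the members apart from other genes.

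The median log2 fold of the numbered Zfp genes was -0.18, against -0.07 over all genes. At least 2-fold lower with siBcat1 were 22 of the 204 members, or 10.8%, where all genes gave 13.2%. At least 2-fold higher were 2 members, or 0.980%, where all genes gave 5.56%. At a smaller threshold of 1.5-fold, 55 members (27.0%) were lower beside 25.8% of all genes, and 15 (7.35%) were higher beside 17.5%. The lower share of the members was thus near that of all genes, and the share of higher members was below that of all genes at both thresholds. Their spread was also narrower, with an SD of 0.629 across members and 0.844 across all genes.

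Among the 116 members that overlap no other gene, 7 (6.03%) were at least 2-fold lower and 0 higher, where 9.92% and 6.34% of the 4445 genes that overlap no other gene were. Of these 116 members 69 have a KRAB box, a domain described below, with 2 lower, and 47 do not, with 5 lower. Of the 22 lower members, 20 had their whole counting interval past 2-fold, and of the 2 higher members 0 did. At the edge of the rule, Zfp446 (514 and 491 counts, siControl first), Zfp760 (544 and 462) and Zfp40 (611 and 428) were just inside the minimum, and Zfp667 (445 and 514), Zfp820 (456 and 523) and Zfp248 (531 and 459) just outside. Neither trio held a gene that was 2-fold higher or lower.

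**Figure D1:**
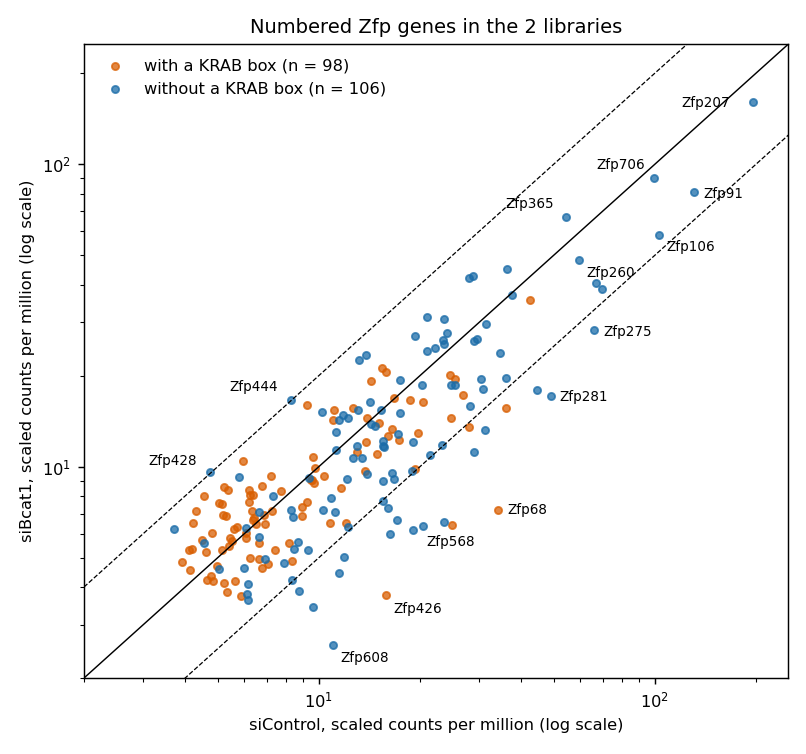
Level of each of the 204 numbered Zfp genes in siControl (horizontal) and siBcat1 (vertical), in CPM on log axes, 1 point per gene and 1 library per group. The solid line marks equal levels and the dashed lines 2-fold. The 22 genes below the lower dashed line include Zfp68, Zfp426, Zfp568 and Zfp608, and 2 genes, Zfp428 and Zfp444, reach the upper one.

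Per length, the most abundant member was Zfp207 (BuGZ), a spindle and kinetochore protein that binds Bub3. The authors' TPM for it was 178.1 in siControl and 102.4 in siBcat1, and its counts were 25814 and 16293, with -0.29 as the log2 fold in scaled counts. Zfp637 followed with 63.6 and 55.8 TPM, Zfp91 with 48.4 and 21.1 TPM, and Zfp706 with 46.7 and 29.9 TPM. The median member had 6.30 TPM in siControl and 3.88 TPM in siBcat1, against 23.4 TPM over all genes in siControl.

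Of the 10 members with the most counts 0 were 2-fold higher and 1, Zfp275, was 2-fold lower, beside 5.56% and 13.2% of all genes. In 10 genes such counts are not far from the background. Zfp275 had 8693 counts in siControl and 2862 in siBcat1, at -1.23. Zfp148, a factor that binds GC-rich promoters, had 8801 and 4090 counts and a log2 fold of -0.73. Zfp664 had 9152 and 3932 counts and a log2 fold of -0.84. Zfp260, a cardiac regulator downstream of alpha-adrenergic signals, had 7837 and 4876 counts and a log2 fold of -0.31. Zfp706 stood at -0.14. Zfp365 (7170 and 6790 counts), a centrosomal protein, and Zfp637 (4763 and 4568 counts) were the members of these 10 with positive folds, 0.30 and 0.32.

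The lowest fold belonged to Zfp68, a KRAB member. Its level was 4486 counts in siControl against 727 in siBcat1 (34.1 and 7.18 CPM). That is a log2 fold of -2.25 (interval -2.36 to -2.14), or 4.76-fold lower. Zfp608, whose product represses the recombination genes Rag1 and Rag2 in thymocytes, had 1448 and 260 counts and a log2 fold of -2.10 (-2.30 to -1.91). Zfp426, a KRAB member, had 2089 and 381 counts and a log2 fold of -2.08 (-2.24 to -1.92). Zfp568, a KRAB member that silences a placental transcript of Igf2, had 3273 and 652 counts and a log2 fold of -1.95 (-2.08 to -1.83). In all 4 siBcat1 was the low library and the whole interval lay past 2-fold.

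The next 6 were members without a KRAB box. Zfp609, the paralog of Zfp608 and a partner of the Integrator complex, had 3107 and 664 counts (log2 fold -1.85), and Zfp704 had 2681 and 647 (-1.68). Zfp652, a transcriptional repressor, had 2511 and 628 counts (-1.62). Zfp281, a factor of pluripotency and epithelial-mesenchymal transition, had 6437 and 1736 counts (-1.51). Zfp526 had 1260 and 349 counts (-1.48) and Zfp532 had 2148 and 606 (-1.45). Zfp68 overlaps 3 genes on the opposite strand, Zfp608, Zfp426 and Zfp704 each overlap 2, and Zfp652 and Zfp532 overlap genes on both strands, while Zfp568, Zfp609, Zfp281 and Zfp526 overlap none.

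The other 12 genes at least 2-fold lower were Zfp516, Zfp142, Zfp236, Zfp521, Zfp335, Zfp46, Zfp275, Zfp871, Zfp318, Zfp407, Zfp445 and Zfp646. Their log2 folds ran from -1.38 in Zfp516, an activator of the brown fat gene Ucp1, to -1.01 in Zfp646. Of all 22 lower members, 17 had no KRAB box, and 15 had a transcript longer than 5000 bases, as 54 of the 204 members did.

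At the upper end, Zfp428 stood at 624 counts in siControl against 973 in siBcat1, and its log2 fold was 1.02 (0.87 to 1.16). Zfp444, a SCAN-box member, had 1087 and 1686 counts and a log2 fold of 1.01 (0.90 to 1.12). Both lie at the threshold rather than past it, and with library totals in place of TMM neither was 2-fold higher. The KRAB members Zfp560 (782 and 1059 counts), Zfp959 (600 and 809), Zfp970 (1214 and 1620), Zfp850 (567 and 723) and Zfp932 (688 and 869) had log2 folds of 0.81, 0.81, 0.79, 0.73 and 0.71. Zfp771 (1735 and 2275 counts), Zfp593 (1822 and 2380), a factor of ribosome assembly, and Zfp775 (488 and 631) had 0.77, 0.76 and 0.75. All 10 were higher in siBcat1 after scaling, by 1.64-fold to 2.02-fold.

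**Figure D2:**
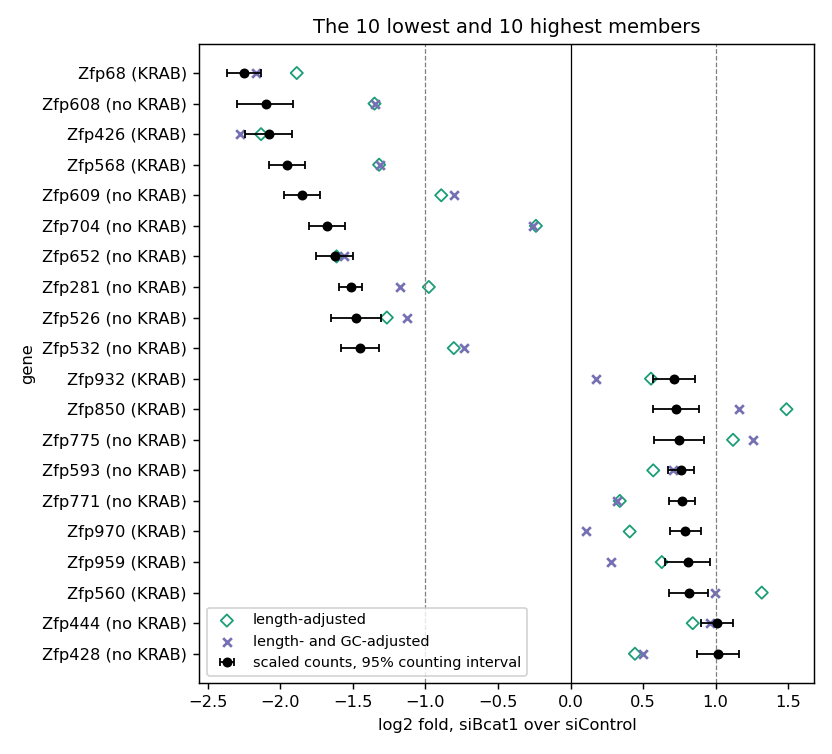
The 10 lowest and 10 highest numbered Zfp genes by log2 fold of siBcat1 over siControl. Black points with bars are scaled counts with the exact 95% counting interval, open diamonds the fold after the trend with transcript length was subtracted, crosses the fold after trends with length and GC content were. Zfp704 moves from -1.68 to -0.24 with the length trend subtracted, and Zfp426 stays at -2.13.

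Folds in this pair of libraries followed transcript length. Across all genes the rank correlation (Spearman) of log2 fold with length was -0.649 over 10147 genes, and across the 204 members it was -0.574. These are descriptions across genes, which share 2 libraries and are not replicates. The trend was fitted over all genes with a smooth (lowess) curve, which accounted for 36.8% of the variance of all folds and 27.1% of that of the members, and was subtracted. The members have longer transcripts than all genes, with medians of 3516 and 2959 bases.

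With the length trend subtracted, the median of the members was 0.05, the opposite sign to that in scaled counts, against 0.00 over all genes. Then 6 members (2.94%) were at least 2-fold lower beside 5.53% of all genes, and 7 (3.43%) were higher beside 4.17%. All 6 lower genes were among the 22 before: Zfp426 at -2.13, Zfp68 at -1.89, Zfp652 at -1.61, Zfp608 at -1.35, Zfp568 at -1.32 and Zfp526 at -1.27. The 7 higher genes were Zfp560, Zfp626, Zfp709, Zfp738, Zfp775, Zfp846 and Zfp850, of which none was 2-fold higher before adjustment. Of these, Zfp846 and Zfp738 had scaled folds of 0.06 and -0.34 on transcripts of 12974 and 13215 bases, and so lay above the trend of equally long genes without being much higher themselves.

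Subtracting a GC trend as well gave 7 lower members (3.43%) beside 5.32% of all genes, and 3 higher (1.47%) beside 3.52%, with a member median of -0.04. The lower genes were the same 6 and Zfp281 at -1.18. The higher genes were Zfp775, Zfp846 and Zfp850. On the authors' TPM, as log2(TPM + 1), the median over all genes moved to -0.52 and that of the members to -0.56, 40 members (19.6%) were 2-fold lower beside 24.0% of all genes, and 0 were higher beside 0.985%. Of the 204 members 183 had a fold below 0 on that scale, against 127 in scaled counts. The median over all genes fell as well, from -0.07 to -0.52, and the same count over all genes is not given here. Without a pseudocount, the log2 ratio of the TPM values minus the fold in scaled counts had a median of -0.51 across members. Zfp672 had the highest such difference, 0.25, and Zfp451 the lowest, -0.87.

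**Figure D3:**
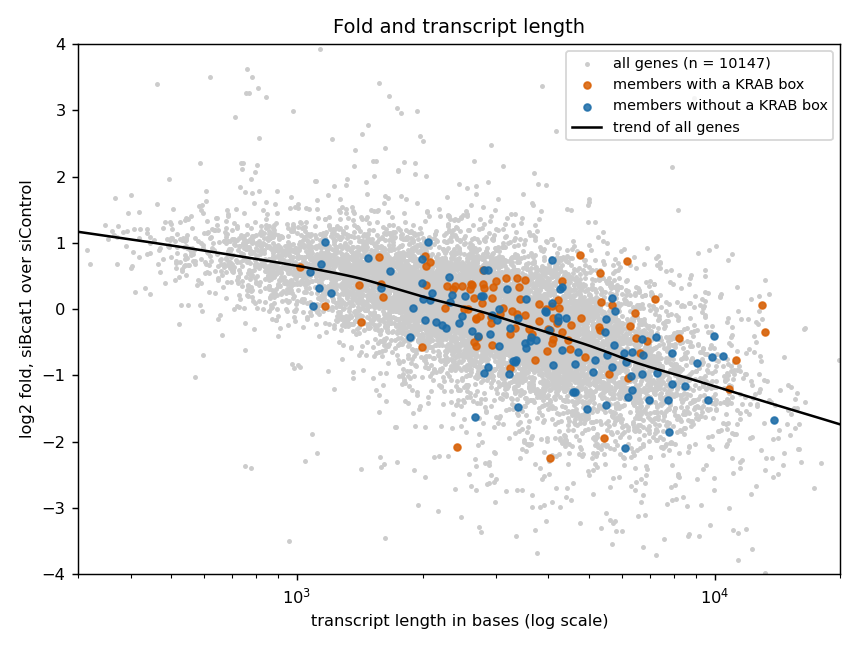
Log2 fold of siBcat1 over siControl in scaled counts against transcript length on a log axis, with all genes in grey, KRAB members in orange, the other members in blue and the curve of all genes in black. Of 10147 genes, 26 lie outside the axes. The KRAB members with the longest transcripts lie near or above the curve, while Zfp68 and Zfp426 lie far below it.

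A KRAB box was found in 98 members and none in 106. The 106 include 5 members without a C2H2 pattern, which were not searched for the box. The KRAB members had a median log2 fold of -0.07, with 5 of 98 (5.10%) at least 2-fold lower and 0 higher. The members without it had a median of -0.39, with 17 of 106 lower and 2 higher. All genes stood at -0.07, with 13.2% lower and 5.56% higher. The sign of the KRAB median turned to 0.06 with upper-quartile factors, which moved the median of all genes to 0.06 as well, and to 0.18 with the length trend subtracted, while that of the others stayed below 0 at -0.26 and -0.05. Within 1.5-fold were 77 of the 98 KRAB members (78.6%), 57 of the 106 others (53.8%) and 56.7% of all genes.

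The 2 groups differ in more than the box. The KRAB members had a median transcript of 3388 bases with 41.6% GC, a median of 12 fingers and 7.21 CPM (mean of both libraries). The members without a box had 3624 bases, 51.2% GC, 7.5 fingers and 13.6 CPM. With trends of length and GC subtracted, the medians were 0.02 and -0.09. Among genes under 45% GC, 68 KRAB members had a median of 0.02 and 26 others -0.22, while at 45% or more 30 KRAB members had -0.19 and 80 others -0.46, so in scaled counts the KRAB median was the higher on both sides of that split. Which of these properties the difference goes with was not tested.

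Genes outside the rule that carry the same features were set beside the members. The 32 other genes with a KRAB box and fingers stood at -0.01, and the 107 other genes with at least 3 fingers and no KRAB box at -0.54. After both trends were subtracted these were -0.03 and -0.04. The 9 members with a SCAN box, a dimerisation domain, had a median of -0.29, with 1 lower and 1 higher. Among members without a KRAB box, the 31 with at least 11 fingers had a median of -0.65 with 9 lower. The 75 with fewer had a median of -0.21 with 8 lower. Their median lengths were 4639 and 3299 bases. The background for these counts was 13.2% of all genes lower and 5.56% higher.

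Set against genes of like length, the KRAB members stood furthest from all genes among long transcripts. All genes were put in 5 equal bins of transcript length. In the shortest bin the medians were 0.61 over all genes, 0.37 over 7 KRAB members and 0.57 over 9 others. In the longest bin, of 4808 bases or more, they were -0.80 over all genes, -0.34 over 21 KRAB members and -0.82 over 35 others. There 39.6% of all genes, 3 of the 21 KRAB members and 13 of the 35 others were at least 2-fold lower. With the GC trend subtracted too, the KRAB members of that bin stood at 0.20 and the others at -0.12. The rank correlation of fold with length was -0.426 across KRAB members and -0.676 across the others, again as a description.

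**Figure D4:**
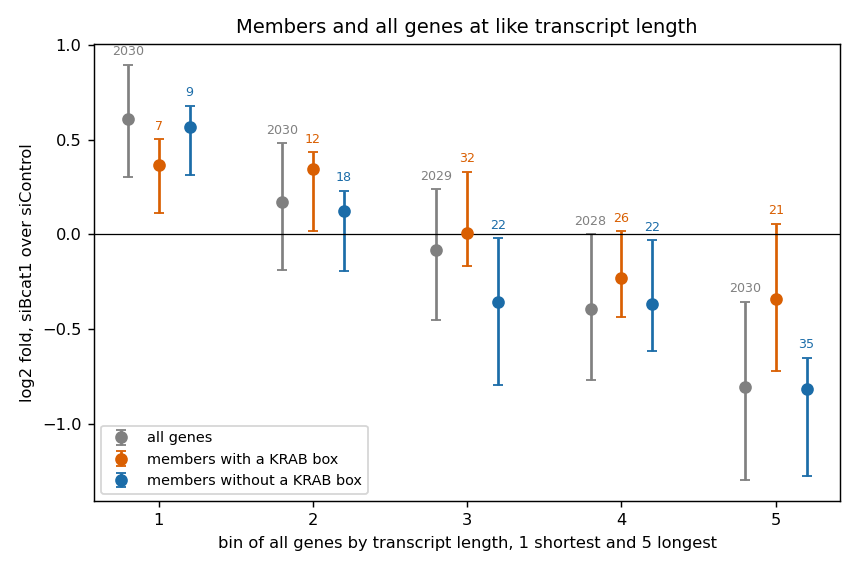
Median log2 fold of siBcat1 over siControl in scaled counts, in 5 equal bins of all genes by transcript length, for all genes (grey), KRAB members (orange) and members without a KRAB box (blue). Bars span the 25th to 75th percentile of genes and are not errors of the median, and the numbers are genes per group. In the longest bin the KRAB median is -0.34 where all genes stand at -0.80 and the other members at -0.82.

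The members whose proteins bind RNA or act in translation were all within 2-fold, 8 of 8, with a median of -0.12. Over all genes 13.2% were lower and 5.56% higher, so in 8 genes a count of this kind is not far from the background. Zfp36 (tristetraprolin), which sends AU-rich mRNAs to decay through a different kind of finger, had 2765 counts in siControl against 2453 in siBcat1 (0.20). Zfp598, the ubiquitin ligase that senses collided ribosomes, had 4046 and 1835 counts (-0.77), and Zfp622, a factor of ribosome maturation, had 3673 and 4252 (0.59). Zfp106 had 13546 and 5925 counts (-0.82), and Zfp346, which binds double-stranded RNA, 2178 and 967 (-0.80). Zfp326, Zfp638 and Zfp830, linked to splicing, stood at 0.24, -0.45 and 0.32. Values of both signs thus occurred within this list.

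The list of ubiquitin, SUMO and chromosome segregation genes holds 3 members and not Zfp598. None was 2-fold lower, beside 13.2% of all genes, and the median was -0.67. Zfp91, a ubiquitin ligase, had 17204 and 8186 counts and a log2 fold of -0.70. Zfp451, a SUMO ligase, had 2509 and 1219 counts and a log2 fold of -0.67. With the length trend subtracted they stood at -0.05 and 0.31, and Zfp207 at -0.38.

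Of 26 listed regulators of mesenchymal or developmental programmes, 25 passed the count minimum. They had a median of -0.73, and 6 of 25 were at least 2-fold lower and 0 higher, beside 13.2% and 5.56% of all genes: Zfp609, Zfp704, Zfp281, Zfp521, Zfp335 and Zfp318. With the length trend subtracted the median was -0.14 and 0 were lower, beside 5.53% of all genes. The median transcript of the 25 was 4632 bases. Zfp521, which restrains adipogenesis in mesenchymal progenitors, had 5879 counts in siControl against 1811 in siBcat1 (-1.32). Its relative Zfp423, a determinant of preadipocytes, had 288 and 95 counts and lay below the minimum. Zfp335, a partner of histone methyltransferase complexes, had 1566 and 509 counts (-1.25), and Zfp318, which governs IgD expression in B cells, 1146 and 393 (-1.17).

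Others on this list were within 2-fold. Zfp467, a regulator of osteoblast and adipocyte fate, had 1095 and 427 counts (-0.98), Zfp362 had 2485 and 981 (-0.97), and its paralog Zfp384 4737 and 1989 (-0.88). Zfp592 and Zfp687, which form a complex with Zfp532, had log2 folds of -0.96 and -0.82, and Zfp217 had -0.88. The corepressors Zfp703 and Zfp503, which have no C2H2 pattern by the search used, had -0.41 and -0.12. Positive folds were seen in Zfp219 (0.58), a partner of Sox9 in cartilage, Zfp277 (0.48), a repressor of the Cdkn2a locus, Zfp644 (0.16), Zfp367 (0.15) and Zfp410 (0.11), an activator of Chd4. Zfp462, Zfp827, Zfp292, Zfp143 and Zfp395 ran from -0.72 to -0.18.

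Of 9 listed genes known for silencing retroelements or imprinted loci, 5 passed the minimum, with a median of -0.57 and 2 at least 2-fold lower, beside 13.2% of all genes. These were Zfp568, given above, and Zfp445, a guardian of imprints, with 3690 counts in siControl and 1376 in siBcat1 (-1.05). Zfp57, which keeps imprints in early embryos, had 928 and 482 counts (-0.57), and Zfp809, which silences proviruses in embryonic stem cells, 1819 and 1227 (-0.19). Zfp932, a repressor of endogenous retroviruses, had a log2 fold of 0.71, and it shares 26.9% of its 100-base words, most of them with Gm15446. Zfp708 had 248 and 251 counts, and Zfp819, Zfp92 and Zfp42 were at 0 in both libraries. With the length trend subtracted 1 of the 5, Zfp568, was 2-fold lower, beside 5.53% of all genes.

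The partners that KRAB proteins work through were listed with other heterochromatin genes, 31 symbols of which 30 were in the table and 28 passed the minimum. Trim28, the KRAB scaffold, was counted 37073 times in siControl against 23469 in siBcat1, which is -0.28 on the log2 scale (-0.31 to -0.26). Setdb1, the methyltransferase it recruits, had 3399 and 1487 counts and stood at -0.82 (-0.91 to -0.73). At least 2-fold lower were 7 of 28, beside 13.2% of all genes, and 1 was higher, beside 5.56%. The median was -0.51.

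The 7 lower genes were the remodellers Chd3 (-1.55) and Atrx (-1.42), the DNA methyltransferases Dnmt3a (-1.30) and Dnmt1 (-1.16), Atf7ip (-1.26), which stabilises SETDB1, Uhrf1 (-1.22), the cofactor of Dnmt1, and Cbx5 (-1.03), which encodes HP1 alpha. The higher one was the methyltransferase Suv39h1, with 1556 and 2467 counts and a log2 fold of 1.04. With the length trend subtracted the median was -0.04, and 0 genes were lower, beside 5.53% of all genes. Suv39h1 was the 1 higher gene, at 1.13, beside 4.17% of all genes. Like the developmental regulators, the corepressor and heterochromatin genes had a median below that of all genes in scaled counts. It was near 0 once the trend of genes of like length was subtracted.

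Many numbered Zfp genes lie side by side. Taking runs of at least 5 members with gaps of at most 500 kb between neighbours gave 10 runs with 68 members, 49 of them with a KRAB box, and 91 members had no other member within that gap. On chromosome 9, the run chr9:20345136-20605409 (GRCm38) holds 5 KRAB genes: Zfp560 at 0.81, Zfp26 at -0.76, Zfp426 at -2.08, Zfp266 at -0.26 and Zfp846 at 0.06. Neighbours there span nearly the whole range of KRAB members, with the lowest but one and the highest among them. On chromosome 7, a run of 8 (chr7:29768552-30169750) runs from Zfp568 at -1.95 to Zfp383 at 0.37. The largest run, 12 KRAB genes at chr17:21008903-22456689, spanned -0.54 (Zfp946) to 0.47 (Zfp52), with a median of -0.01 and none 2-fold higher or lower.

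The other 7 runs had medians from -0.29 to 0.02 and held 3 members past 2-fold: Zfp871, Zfp646 and Zfp428. The lowest member of all, Zfp68, and most of the 22 lower members lie outside the runs. So do most members of any fold, since the runs hold only 68 of the 204. By chromosome, the 9 members on chromosome 18 had a median of -1.32 with 6 lower, where 47 of all 274 genes there were lower and the median was -0.16. Those 9 have a median transcript of 6095 bases, and their median with the length trend subtracted was -0.23. Chromosome 7 held the most members, 51, with a median of -0.16, and the 17 on chromosome 8 had a median of 0.13.

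**Figure D5:**
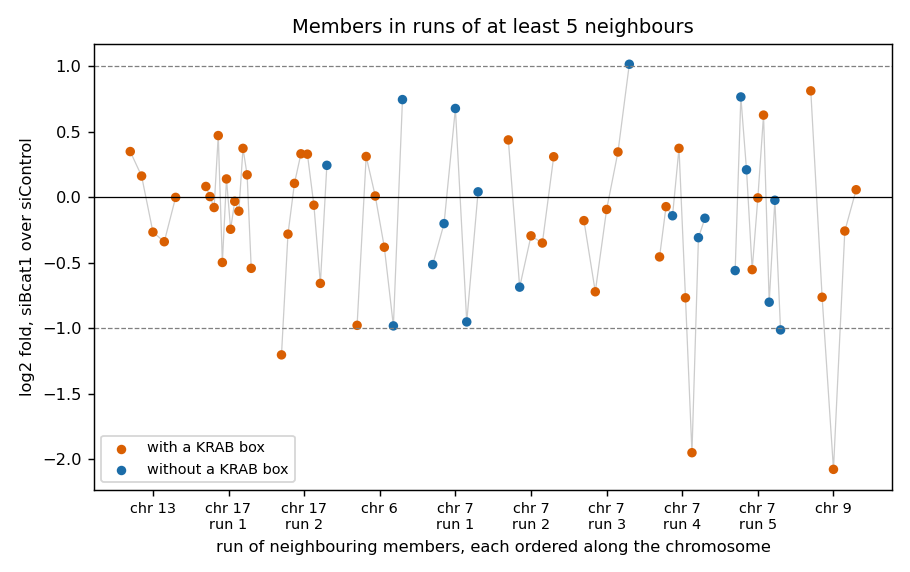
Log2 fold of siBcat1 over siControl in scaled counts for the 68 members in 10 runs of neighbouring genes, each run drawn in order along its chromosome, with KRAB members in orange and the others in blue. Dashed lines mark 2-fold. In the chromosome 9 run Zfp560 at 0.81 and Zfp426 at -2.08 lie 2 places apart.

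Because Zfp560 and Zfp426 lie in 1 run on the same strand, with Zfp26 between them, and have folds at opposite ends, and Zfp68 is the lowest member, the 250 bases before the start of each are shown. They come from RefSeq (GRCm38.p6) and are written 5′ to 3′ on the gene's strand. Capitals mark the GC box (GGGCGG), the CCAAT box (CCAAT) and the cAMP response element (CRE, TGACGTCA), each searched on both strands. None of these motifs holds another. The same search for motifs of ETS, YY1, NRF1, AP-1 and E2F factors found no match in these 3 windows.
Zfp68 (chr5:138619744-138619993, minus strand): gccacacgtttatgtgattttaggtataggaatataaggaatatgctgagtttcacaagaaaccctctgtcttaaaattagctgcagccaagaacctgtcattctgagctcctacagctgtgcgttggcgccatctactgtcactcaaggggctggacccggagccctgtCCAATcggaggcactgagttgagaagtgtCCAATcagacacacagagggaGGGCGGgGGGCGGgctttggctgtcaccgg
Zfp426 (chr9:20492747-20492996, minus strand): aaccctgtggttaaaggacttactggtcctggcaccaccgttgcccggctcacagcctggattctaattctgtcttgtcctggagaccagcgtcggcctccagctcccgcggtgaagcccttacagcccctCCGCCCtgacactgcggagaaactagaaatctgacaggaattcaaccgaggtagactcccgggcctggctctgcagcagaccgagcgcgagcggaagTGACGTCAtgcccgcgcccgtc
Zfp560 (chr9:20385159-20385408, minus strand): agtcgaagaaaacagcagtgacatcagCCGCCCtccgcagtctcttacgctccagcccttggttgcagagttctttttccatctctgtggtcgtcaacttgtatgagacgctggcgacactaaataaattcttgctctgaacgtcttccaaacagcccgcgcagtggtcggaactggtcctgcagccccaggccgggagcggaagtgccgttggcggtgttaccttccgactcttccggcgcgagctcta
All 3 windows hold a GC box, Zfp68 alone of the 3 holds a CCAAT box, and Zfp426 alone of the 3 holds a CRE. They contain 8, 18 and 19 CpG dinucleotides in the order given.

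Such windows were found for 166 members and for 8212 of all genes, with 1 listed start for each gene. A listed start need not be the one these cells use, and that of Zfp652 lies within its GENCODE gene, so some windows may not be promoters. A GC box was in 62.8% of all windows, 47.0% of the members', 35.6% of those of KRAB members and 59.5% of those of the others. A CCAAT box was in 37.2%, 48.2%, 55.2% and 40.5% in the same order. The CRE was in 2.86% of all windows and in 4 of the 166 members' (2.41%). Median GC content was 60.4% over all windows, 52.4% for KRAB members and 60.4% for the others, with a median of 17, 10 and 14 CpG dinucleotides. A match is a string of letters and says nothing of whether a factor binds there.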

How the data were processed

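RNA was sequenced from 2 libraries, 1 per group, grouped by the treatment label. Per the labels' protocols a stranded mRNA kit from Illumina was used, and the submitters' processing notes list FastQC, Trimmomatic, HISAT2, StringTie and the build mm10 with no version. Step order, use of strand and the unit counted (read or pair) were not given in the sources used here. Gene counts are whole numbers without normalization, as deposited and per the file headers. TPM values, relative to transcript length and depth, are the authors' own per the file headers. They were used only as an alternative and to compare levels between genes.

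Counts were scaled with TMM in edgeR 4.0.16 (R 4.3.3), with factors of 1.03 for siControl and 0.969 for siBcat1. The interval of each fold is the exact 95% binomial interval of the siBcat1 share of both counts. With pairs counted as 2 reads it would be too narrow. A difference of 2-fold is a rule of size, and no test was possible with 1 library per group. Transcript lengths, GC content, overlaps and coding sequences came from GENCODE M21, matched by accession for all 204 members. Length and GC content are medians over the matched transcripts of a gene. A lowess curve on log2 length (fraction 0.3, 3 iterations, statsmodels 0.14.6) was fitted over 10147 genes.

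KRAB boxes were scored against a consensus of 41 residues in translated GENCODE coding sequences, in place of the RefSeq proteins first planned. Members with a finger pattern scored at most 10 or at least 14, and the cut of 12 was set after the scores were seen. The 5 members without that pattern were not scored and were put with those without a box. Fingers were found by the pattern of a C2H2 finger. Promoter windows are RefSeq's.

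The members and the lists were chosen with earlier results of these data known. Named genes are the 10 highest and 10 lowest members by log2 fold, the 10 with most counts, the members of the 4 role lists, 3 on each side of the count minimum, Trim28, Setdb1 and the 8 corepressor genes with the largest folds, and Bcat1. Genes named for runs, shared sequence, unit effects or a count of few genes were chosen after their values were seen. The alternatives tried were upper-quartile factors, library totals, size factors of DESeq2 1.42.0, TPM with a pseudocount of 1 or 0.1, length and GC trends, other minimums and thresholds. A further pair, leaving out members that share sequence or overlap other genes, were chosen after seeing the data. The calculations were tested on simulated data.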

Additional observations from a re-analysis of the deposited data

How the results depend on the processing

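With 1 library per group no result has a replicate check, and counting intervals cover counting error only. No paired analysis was possible because each group has 1 library. DESeq2 size factors left every count of the members and of the corepressor list as in scaled counts. Library totals gave 0 members and 0 corepressor genes 2-fold higher, beside 398 of all 10157 genes. They gave 28 members and 8 corepressor genes 2-fold lower, beside 1544 of all genes. Upper-quartile factors gave medians of -0.051 for the members, 0.062 for KRAB members, -0.26 for the others and -0.38 for the corepressor genes. TPM with a pseudocount of 1 gave 40 members lower and 0 higher, medians of -0.56, -0.42 and -0.70, and 12 corepressor genes lower, 0 higher and a median of -0.89. With a pseudocount of 0.1 these were 61 and 0, -0.66, -0.55 and -0.86, and 14, 0 and -1.0. Of all 10157 genes, 2436 were lower and 100 higher with a pseudocount of 1, and 2940 and 113 with 0.1. Subtracting the length trend gave 6 lower and 7 higher, medians of 0.048, 0.18 and -0.054, and 0 corepressor genes lower with a median of -0.043. Subtracting length and GC trends gave 7 lower, medians of -0.036 for the members and -0.086 for those without a KRAB box, and 0 corepressor genes lower with a median of -0.045. Over all genes 561 were lower and 423 higher with the length trend subtracted, and 540 and 357 with both trends subtracted. A minimum of 2000 summed counts gave 18 of 121 members lower, beside 1153 of 8930 genes, and 1 higher, beside 469. The median was then -0.31 for the members and -0.060 over all genes. With no minimum beyond 1 count in each library 39 of 314 members were lower and 5 higher. Of 14471 genes, 1999 were lower and 1628 higher at that setting. A threshold of 1.5-fold gave 55 lower and 15 higher, beside 2622 and 1773 of all genes. At 3-fold 7 were lower and 0 higher, beside 473 and 100 of all genes. Asking for the whole interval past 2-fold left 20 lower and 0 higher, beside 1143 and 444 of all genes. Without members that overlap another gene, 7 were lower and 0 higher, and the median of those without a KRAB box was -0.29. The cause of these shifts was not tested. Of the 17 named members past 2-fold in scaled counts, 17 stayed past it with DESeq2, 15 with library totals, 16 with upper-quartile factors, 14 with TPM and a pseudocount of 1, 15 with 0.1, 6 with the length trend subtracted and 7 with both trends subtracted.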

Other observations

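Other zinc finger families named by symbol had these log2 folds of siBcat1 over siControl in scaled counts. The 30 Zbtb genes, whose proteins pair C2H2 fingers with a BTB dimerisation domain, had a median of -0.46 with 8 at least 2-fold lower and 0 higher. The 14 Klf and Sp genes, which bind GC-rich promoter elements through 3 fingers, had a median of -0.74 with 5 lower. The 14 Zc3h genes, which bind RNA, had a median of -0.85 with 6 lower, and the 12 Zscan and Zkscan genes a median of -0.45 with 2 lower. The 17 Zdhhc genes, which encode palmitoyltransferases, had a median of -0.01 with 2 lower. The 23 Zfp genes with letters in their symbols had a median of -0.24 with 2 lower. With the length trend subtracted these medians were -0.06, -0.37, -0.25, -0.20, -0.12 and 0.19 in the order given. All genes stood at -0.07 in scaled counts, with 13.2% lower and 5.56% higher.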
